A study of Mus musculus with 15 samples.

Results

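Transcripts of the genes whose symbols start with Nduf, which encode nuclear subunits and dedicated assembly factors of respiratory complex I, were examined in gastrocnemius muscle. Described are 40 such genes of the 13602 in the deposited count table, namely 34 subunits (Ndufa, Ndufb, Ndufc, Ndufs and Ndufv) and 6 assembly factors (Ndufaf). The 34 follow the symbols and include Ndufa4, now placed with complex IV, and its relative Ndufa4l2. All 40 genes were chosen by symbol alone, and all passed the low-count filter. The muscle came from 7 male knockouts, in which Cpt1b was deleted in skeletal muscle only, and from 8 male controls labelled wild type (floxed), and each library was taken as 1 mouse. Cpt1b is the muscle enzyme that loads long-chain fatty acids onto carnitine for entry into mitochondria. Both groups were fed for 12 to 14 weeks. Titles and protocol call this diet chow, but the diet field gives 45% HFD for all 15 libraries. The labels name neither the Cre line nor the deleted exons.

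Complex I passes electrons from NADH to ubiquinone and pumps protons across the inner mitochondrial membrane. Its matrix arm holds the N module, where NADH is oxidised, and the Q module, where ubiquinone is reduced, and its membrane arm carries the proton pumps. Core subunits are shared with bacteria and carry out catalysis, and those of the membrane arm are encoded by mitochondrial DNA and bear no Nduf symbol, while accessory subunits surround them and are needed for assembly and stability. Assembly factors join intermediates and are absent from the finished enzyme. In muscle, beta-oxidation and the TCA cycle both deliver NADH to this complex.

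Levels were measured by SAGE, which reads 1 short tag toward the 3′ end of a transcript, so that counts do not scale with its length. The tags predicted from GENCODE M21 transcripts (GRCm38) are shown for the members on which the results turn. The first 4 belong to genes whose call depended on 1 control library, and the last 3 to genes with 1 far lower library. Each runs 5′ to 3′ over 27 bases from the CATG site nearest the transcript end, with that site in capitals.
Ndufs3: CATGtagatcctagaggaaaaggcctc
Ndufv1: CATGagagctgtggccagtgtaccccg
Ndufa9: CATGgttatctagaagcatttggtata
Ndufa10: CATGtaacttgcatttaacttaattaa
Ndufa7: CATGactgcttttcctccttggactcc
Ndufa1: CATGttatgaaatgcataataaaaaat
Ndufa8: CATGcgcccagacaacagacgacgaaa
In 6 of these the predicted tag starts in the 3′ UTR, and in Ndufv1 it starts in the coding sequence. CATG is the usual SAGE site, but no enzyme is named in the labels, and which tag was counted is not given. Over the 40 members, 23 predicted tags start in the 3′ UTR and 17 in the coding sequence. Of these 40 tags 1 also ends the transcript of another gene: the tag of Ndufs6 occurs in Ndufs6b, a processed pseudogene in GENCODE, so its counts are uncertain.

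Library totals ran from 9390065 to 19397255 counts in knockouts and from 8334436 to 16238258 in controls. Cpt1b had 1.10, 3.83 and 6.46 CPM in knockouts (lowest, median and highest of 7), against 4.44, 6.51 and 13.1 CPM in controls (of 8). Its groups overlapped, and the log2 fold change of -1.03 ± 0.31 (SE, knockout minus control) had an edgeR adjusted p of 0.103. An exact permutation test of the difference in mean log2 CPM gave a two-sided p of 0.00389 (7 knockouts and 8 controls). A tag outside the deleted part would not check the genotype, and the deleted part is not given. Along the leading principal component of all tested genes, which held 44.6% of the variance, knockout 4 and control 7 lay farthest out on 1 side, and values without each of them are given where it moves a difference most. The labels name no batch. Defining markers of skeletal muscle summed to 14462 to 55163 CPM in knockouts and 20404 to 46806 CPM in controls (9 of 9 present, 1 called higher and 1 lower). In bulk muscle, fewer muscle cells and less RNA per cell cannot be told apart.

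No complex I gene was called higher or lower in knockout muscle, although most stood somewhat higher. By edgeR's quasi-likelihood test with Benjamini-Hochberg adjustment, 0 of 40 members passed an adjusted p of 0.05, where 2.17% of all 11062 tested genes did. DESeq2 called 0 of 40, against 3.30% of all genes, and limma voom called 0, against 2.11%. At an unadjusted p under 0.05, 10 of 40 members were higher and 0 were lower, against 7.65% of tested genes higher. The log2 fold change was positive in 34 of 40 members, against 50.6% of tested genes. Its median was 0.24 over the members and 0.0047 over all tested genes, and all 40 differences were smaller than 2-fold. The smallest adjusted p was 0.121, for Ndufv1. Knockout and control libraries overlapped in all 40, where 1.19% of tested genes had groups that did not overlap.

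**Figure D1:**
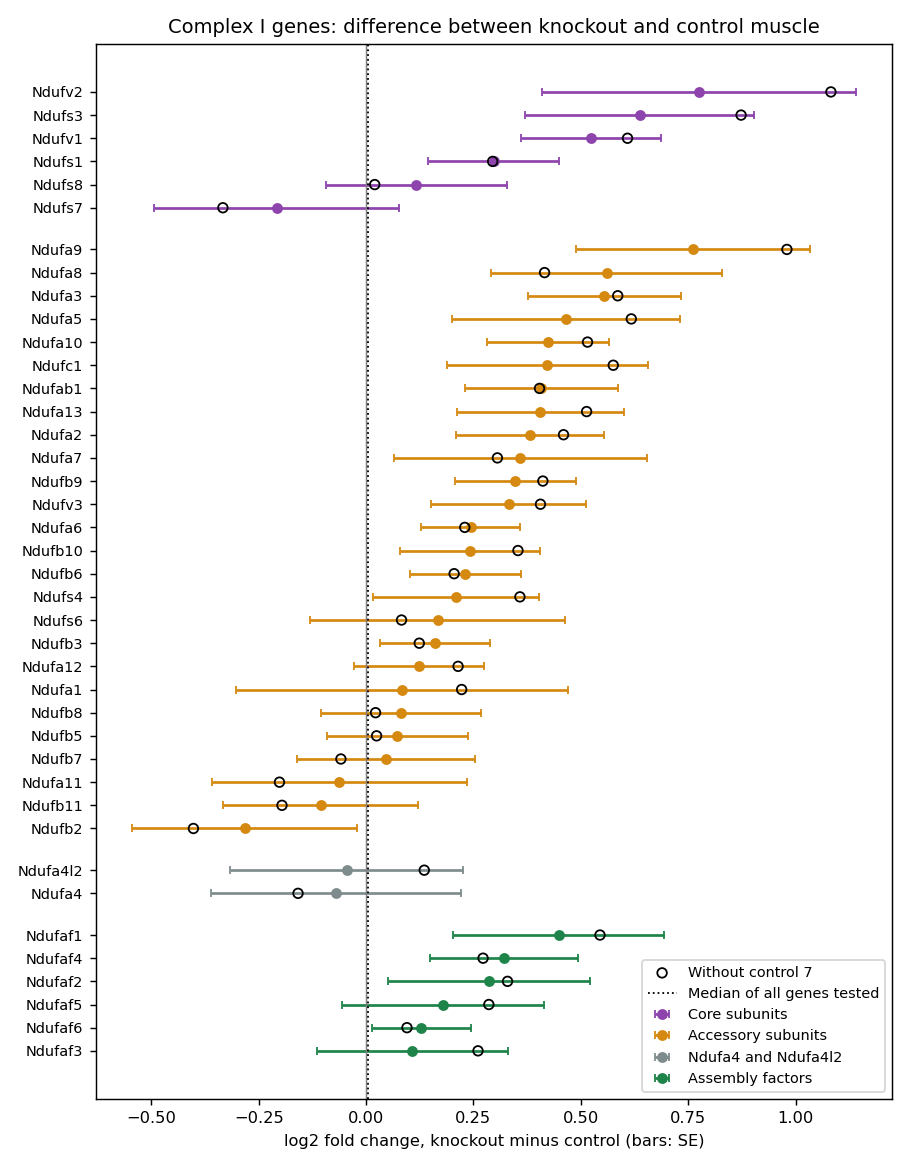
Log2 fold change, knockout minus control, of each of the 40 complex I genes, with bars for the SE from edgeR, grouped into core subunits, accessory subunits, the pair Ndufa4 and Ndufa4l2, and assembly factors. Filled points use all 15 libraries and open circles leave out control 7; filled points run from -0.28 (Ndufb2) to 0.78 (Ndufv2), and 34 of 40 lie right of 0.

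Together the members took a larger share of all tags in most knockout libraries. The 34 subunits took 1.63% ± 0.126 of counts in knockouts and 1.35% ± 0.119 in controls (SD, n = 7 and n = 8). The lowest knockout, knockout 7, stood at 1.45%, above every control but control 7, which stood at 1.58%. These percentages are of library totals without TMM scaling. As a mean of log2 CPM over the subunits, which uses that scaling, knockout 7 stood at 7.36, within the controls (7.19 to 7.47). The other knockouts stood at 7.53 or higher on that scale. The 6 assembly factors took 0.0574% ± 0.00980 of counts in knockouts and 0.0492% ± 0.0127 in controls, and their groups overlapped widely. These shares are led by the most abundant members and were not tested, since the choice of the Nduf symbols as a set was made with earlier results of these data known.

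**Figure D2:**
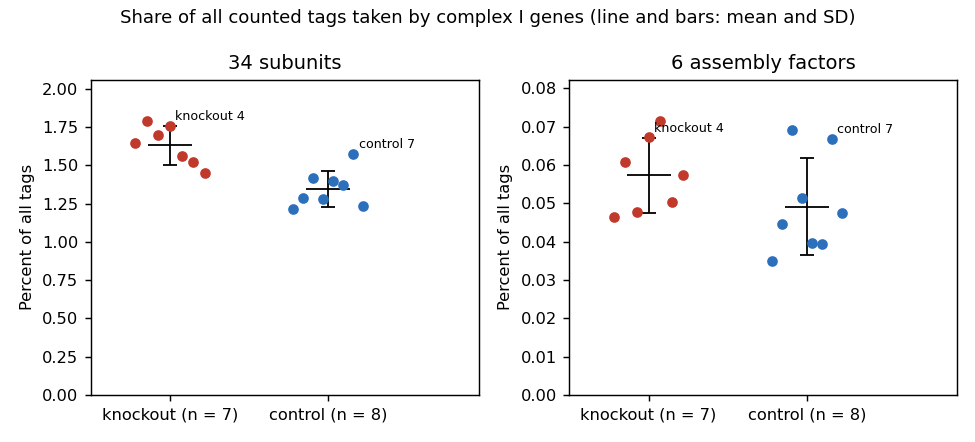
Percent of all counted tags that fell on the 34 subunits (left) and the 6 assembly factors (right) in each library, with the mean and SD of 7 knockouts and 8 controls. In these unscaled shares only control 7 lies among the knockouts for the subunits, while for the assembly factors the groups overlap. By the mean log2 CPM of the subunits, with TMM scaling, knockout 7 lay within the controls.

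With all libraries, subunits and assembly factors had nearly the same median difference. It was 0.24 over the 34 subunits, with 28 positive, and 0.23 over the 6 assembly factors, with all 6 positive. The subunits spread further, between -0.28 and 0.78, than the assembly factors, between 0.11 and 0.45. All 10 members with an unadjusted p under 0.05 by edgeR were subunits, which make up 34 of the 40 members. At that threshold 7.65% of tested genes were higher, so none among 6 assembly factors says little. The classes also differed in tag level: the median member's mean over the 15 libraries was 263 CPM among subunits and 47.8 CPM among assembly factors. The ranges overlapped, from 1.30 to 1602 CPM among subunits and from 4.98 to 214 CPM among assembly factors. Which tag was counted for each gene is not given, so these levels need not rank the transcripts. Without knockout 4 the medians were 0.21 over the subunits and 0.10 over the assembly factors, less alike than with all libraries. With the first surrogate variable they were 0.23 and 0.16. No test of the difference between the classes was made.

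Among the subunits, the 6 core members described had the larger median difference, 0.41 against 0.24 in the 26 accessory members, with no test between them. Ndufs3 (chromosome 2, 90894634 to 90904827, GRCm38 here and below), a Q module subunit of the matrix arm, had 427, 563 and 1089 CPM in knockouts (lowest, median and highest of 7), against 219, 367 and 849 CPM in controls (of 8). Here 6 of 8 controls lay below the lowest knockout, and only knockout 4 exceeded control 7. The log2 fold change was 0.64 ± 0.27 (edgeR adjusted p = 0.301). Ndufv1 (chromosome 19, 4007384 to 4012806), which binds NADH and the flavin, had 14.3, 17.6 and 23.1 CPM in knockouts, against 8.03, 12.6 and 17.1 CPM in controls. Of its knockouts 4 lay above every control, with a log2 fold change of 0.52 ± 0.16 (edgeR adjusted p = 0.121). Ndufv2, the iron-sulfur partner of Ndufv1, had 67.0, 115 and 398 CPM in knockouts, against 51.2, 73.7 and 207 CPM in controls. Its difference, 0.78 ± 0.37, was the largest of all members, and knockout 4 stood far above the other knockouts, whose highest was 158 CPM (edgeR adjusted p = 0.363). Without knockout 4 the log2 fold change of Ndufv2 was 0.33 (edgeR adjusted p = 0.742), and without control 7 it was 1.08 ± 0.32 (edgeR adjusted p = 0.0667).

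The other core subunits showed smaller differences. Ndufs1, a matrix-arm subunit with several iron-sulfur clusters, averaged 49.5 ± 7.69 CPM in knockouts and 40.2 ± 10.1 CPM in controls (SD, n = 7 and n = 8), a log2 difference of 0.30 ± 0.15. Ndufs8, which also carries clusters on the path to ubiquinone, averaged 1104 ± 328 CPM in knockouts and 1018 ± 279 CPM in controls, a log2 difference of 0.12 ± 0.21. Ndufs7, which holds the cluster next to ubiquinone, was the core member with a negative value. It had 569, 901 and 1391 CPM in knockouts, against 407, 1233 and 1550.4 CPM in controls, and its log2 difference of -0.21 ± 0.29 was smaller than its SE. Adjusted p by edgeR was 0.41 for Ndufs1, 0.814 for Ndufs8 and 0.748 for Ndufs7.

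**Figure D3:**
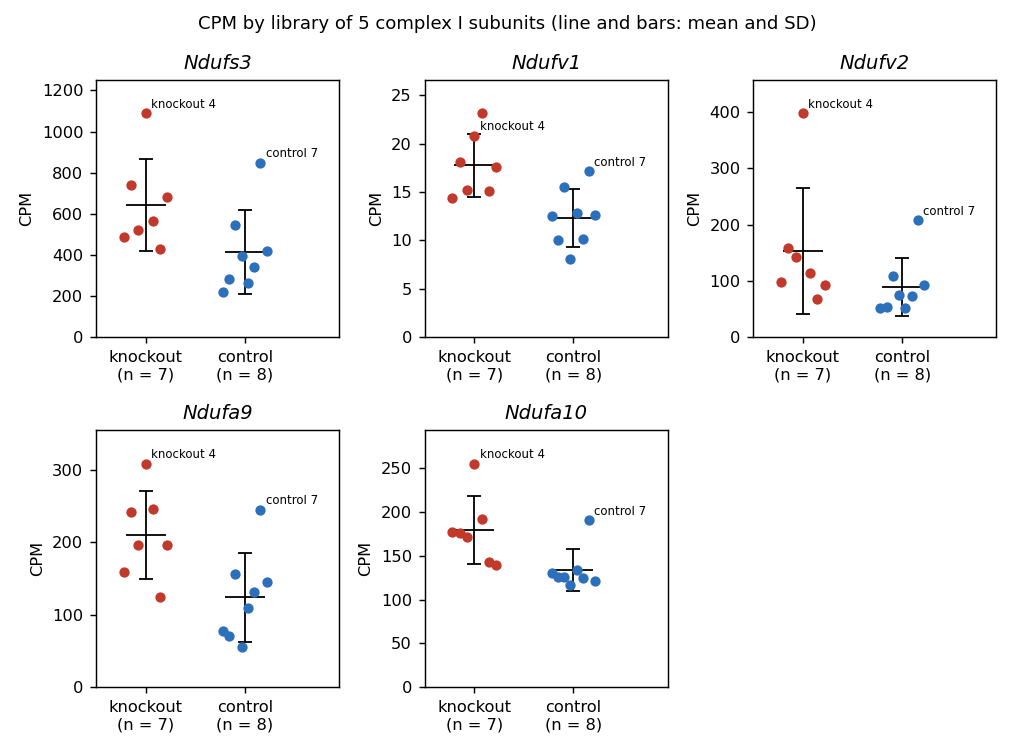
CPM of 5 complex I subunits in each library, with the mean and SD of 7 knockouts and 8 controls, and with knockout 4 and control 7 marked. Control 7 is the highest control in all 5 panels, and knockout 4 the highest knockout in all but Ndufv1.

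The accessory subunits with the largest differences were Ndufa9, Ndufa8, Ndufa3 and Ndufa5, and none passed the test. Ndufa9 (chromosome 6, 126821721 to 126849136), which binds NADPH where the arms meet, had 125, 196 and 309 CPM in knockouts, against 55.1, 120.5 and 245 CPM in controls. All 7 knockouts exceeded the control median, and the log2 fold change was 0.76 ± 0.27 (edgeR adjusted p = 0.2). Ndufa3, a small membrane-arm subunit (chromosome 7, 3617373 to 3620327), had 343, 540.1 and 611 CPM in knockouts, against 208, 343 and 479 CPM in controls. Of its knockouts 4 lay above every control, with a log2 fold change of 0.55 ± 0.18 (edgeR adjusted p = 0.138). Ndufa5, a Q module subunit, had a log2 fold change of 0.47 ± 0.26, which was 0.10 without knockout 4, whose 199 CPM stood above 52.9 to 75.7 CPM in the other knockouts. The adjusted p of Ndufa5 by edgeR was 0.456 with all libraries and 0.879 without knockout 4.

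At the lower end stood Ndufb2, Ndufb11, Ndufa11 and Ndufb7. Ndufb2, of the distal membrane arm, had 315, 535 and 848 CPM in knockouts, against 258, 718 and 898 CPM in controls. In Ndufb2 1 of 7 knockouts exceeded the control median, and the log2 difference of -0.28 ± 0.26 did not pass (edgeR adjusted p = 0.638). Ndufb11, also of the distal arm, differed by -0.11 ± 0.23 and Ndufa11, of the proximal arm, by -0.063 ± 0.30 on the log2 scale. Ndufb7, which faces the intermembrane space, differed by 0.047 ± 0.21. Their edgeR adjusted p was 0.843, 0.932 and 0.926 in that order.

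Apart from Ndufa10, Ndufab1, Ndufs6, Ndufa7 and Ndufa1, described further on, the other 13 accessory subunits lay between these ends, with positive differences throughout. In Ndufb9, of the distal arm and after Ndufa7 the most abundant member, all 7 knockouts exceeded the control median, at 1749 ± 197 CPM in knockouts and 1374 ± 276 CPM in controls and a log2 difference of 0.35 ± 0.14 (edgeR adjusted p = 0.279). The same count held for Ndufc1 of the proximal arm, at 835 ± 197 CPM in knockouts and 623 ± 267 CPM in controls (log2 difference 0.42 ± 0.23), and for the N module subunits Ndufa2, at 736 ± 108 CPM in knockouts and 564 ± 156 CPM in controls (log2 difference 0.38 ± 0.17), and Ndufa6, at 758 ± 69.1 CPM in knockouts and 641 ± 88.3 CPM in controls (log2 difference 0.24 ± 0.12). Ndufa13, also known as GRIM-19 and placed in the proximal arm, had 706, 886 and 1635 CPM in knockouts, against 489, 765 and 1141 CPM in controls, a log2 difference of 0.41 ± 0.19.

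Ndufs4, an N module subunit whose loss causes Leigh-like disease in mice, had 177, 207 and 373 CPM in knockouts, against 131, 184 and 336 CPM in controls, a log2 difference of 0.21 ± 0.19 (edgeR adjusted p = 0.638). In Ndufb6, of the distal arm, 4 knockouts lay above every control and 3 below the control median, at 1108 ± 207 CPM in knockouts and 944 ± 93.8 CPM in controls and a log2 difference of 0.23 ± 0.13. The N module subunits Ndufv3 and Ndufa12 differed on the log2 scale by 0.33 ± 0.18 and 0.12 ± 0.15. The distal-arm subunits Ndufb10, Ndufb3, Ndufb8 and Ndufb5 differed by 0.24 ± 0.16, 0.16 ± 0.13, 0.081 ± 0.19 and 0.073 ± 0.16 in that order. Over these 13 the adjusted p by edgeR ran from 0.279 (Ndufb9) to 0.855 (Ndufb8), and without control 7 it ran from 0.0898 (Ndufb9) to 0.948 (Ndufb8).

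Grouped by place in the enzyme, the distal membrane arm had the smallest median difference. It was 0.12 over 10 members, against 0.42 over 8 members of the proximal membrane arm, 0.29 over 4 of the Q module and 0.31 over 10 of the N module. All 10 N module members had positive values, as did 3 of 4 in the Q module, 7 of 8 in the proximal arm and 8 of 10 in the distal arm, against 50.6% of tested genes. In each module 0 members were called by edgeR, where 2.17% of tested genes were. At an unadjusted p under 0.05 there were 4 members of the N module, 1 of the Q module, 3 of the proximal arm and 2 of the distal arm, all higher. At that threshold 7.65% of tested genes were higher. The modules are small, and no test between them was made.

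The assembly factors had a lower median tag level than the subunits, and none passed the test. Ndufaf1, which works with Acad9 and Ecsit on the membrane arm, averaged 15.7 ± 8.44 CPM in knockouts and 11.5 ± 2.73 CPM in controls (SD, n = 7 and n = 8), with a log2 difference of 0.45 ± 0.25 (edgeR adjusted p = 0.439). Knockout 4 alone stood at 33.9 CPM, and without it the difference was 0.13 (edgeR adjusted p = 0.837). Ndufaf4, which acts with Ndufaf3 on the Q module, averaged 57.0 ± 14.0 CPM in knockouts and 45.6 ± 9.25 CPM in controls, with a log2 difference of 0.32 ± 0.17. In Ndufaf4 knockout 4 was the lowest knockout and 3 knockouts lay above every control. Its adjusted p by edgeR was 0.429.

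Ndufaf3 averaged 46.5 ± 11.7 CPM in knockouts and 43.1 ± 17.5 CPM in controls, a log2 difference of 0.11 ± 0.22 that turned to -0.011 without knockout 4. Ndufaf2, a chaperone of late N module assembly, averaged 5.49 ± 2.70 CPM in knockouts and 4.54 ± 0.595 CPM in controls, a log2 difference of 0.29 ± 0.24, or 0.0017 without knockout 4. Ndufaf5, which hydroxylates an arginine of Ndufs7 in human cells, averaged 209.7 ± 70.3 CPM in knockouts and 185 ± 69.5 CPM in controls, a log2 difference of 0.18 ± 0.24. Ndufaf6, a factor of early assembly, was the most abundant of the 6, with 181, 223 and 265 CPM in knockouts, against 171, 206 and 239 CPM in controls, a log2 difference of 0.13 ± 0.12. By edgeR the adjusted p was 0.838 for Ndufaf3, 0.603 for Ndufaf2, 0.736 for Ndufaf5 and 0.631 for Ndufaf6.

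Some members carry an Nduf symbol but have another or a further role. Ndufa4, now placed with complex IV, averaged 66.9 ± 25.5 CPM in knockouts and 70.2 ± 30.3 CPM in controls, a log2 difference of -0.070 ± 0.29. Its level in knockout 4 was 18.8 CPM, below 62.0 to 104 CPM in the other knockouts, and without that library the difference was 0.10. Its relative Ndufa4l2, known as a hypoxia-induced gene, was near the floor at 1.53 ± 0.287 CPM in knockouts and 1.54 ± 0.704 CPM in controls, a difference of -0.046 ± 0.27 from 6 to 51 tags per library. Ndufab1, the mitochondrial acyl carrier protein, serves complex I and mitochondrial fatty acid synthesis. It had 204, 306 and 445 CPM in knockouts, against 159, 241 and 287 CPM in controls, and 4 knockouts lay above every control. Its log2 difference was 0.41 ± 0.18. Ndufs6, a zinc-binding N module subunit whose tag is shared with a pseudogene, averaged 1.40 ± 0.468 CPM in knockouts and 1.22 ± 0.538 CPM in controls, a log2 difference of 0.17 ± 0.30. The edgeR adjusted p was 0.811 for Ndufs6, 0.921 for Ndufa4, 0.947 for Ndufa4l2 and 0.322 for Ndufab1.

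In knockout 4 and control 7 some members stood at the top of their group and others at the bottom. Knockout 4 was the highest knockout in 18 of 40 members and the lowest in 10, against 32.4% and 29.6% of tested genes. Control 7 was the highest control in 19 members and the lowest in 12, against 29.2% and 26.5% of tested genes. Ndufv2 was 207 CPM in control 7 and at most 109 CPM in the other controls. Ndufs7 was 407 CPM in control 7, where the median of the other controls was 1356 CPM. Ndufs3, Ndufc1 and Ndufa9 were highest in knockout 4 and in control 7 within their groups. Ndufs7 and Ndufb2 were lowest in both. The median within-group SD of log2 CPM was 0.45 over the members and 0.40 over all tested genes.

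**Figure D4:**
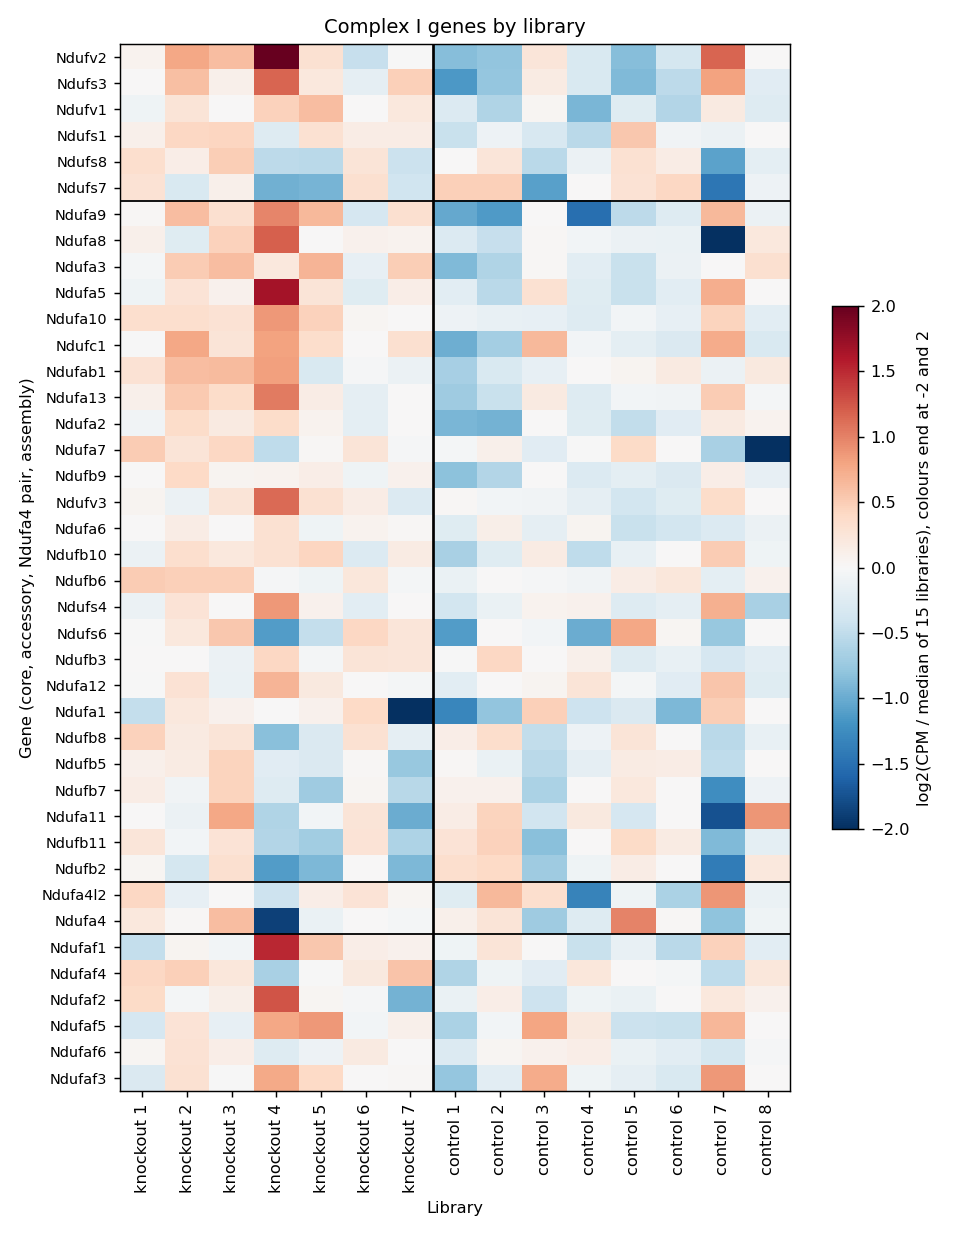
Level of each of the 40 complex I genes in each library, as log2 of CPM over the median of the 15 libraries (blue lower, red higher, colours ending at -2 and 2), knockouts left and controls right, with lines between core subunits, accessory subunits, the pair Ndufa4 and Ndufa4l2, and assembly factors. The columns of knockout 4 and control 7 hold both strong reds and strong blues. Within these columns the deepest red is Ndufv2, and the deepest blue is Ndufa4 in knockout 4 and Ndufa8 in control 7. Blues at the end of the scale also lie elsewhere, for Ndufa1 in knockout 7 and Ndufa7 in control 8.

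Single libraries also set the size of further differences. Without knockout 4 the log2 difference was smaller in Ndufa13 (0.25), Ndufv3 (0.12), Ndufs4 (0.054), Ndufa12 (0.016), Ndufb3 (0.10) and Ndufaf5 (0.078), and closer to 0 in the negative members Ndufb2 (-0.18), Ndufs7 (-0.11) and Ndufb11 (-0.039). It was larger in Ndufs8 (0.19) and Ndufs6 (0.31). Without control 7 it was larger in Ndufs4 (0.36), Ndufa12 (0.21), Ndufaf3 (0.26) and Ndufaf5 (0.29), smaller in Ndufs8 (0.020) and Ndufs6 (0.082), and further below 0 in Ndufs7 (-0.33) and Ndufb11 (-0.20). Other libraries moved some small differences by as much. Over the fits without 1 library the log2 difference ran from 0.019 to 0.19 in Ndufs8, -0.33 to -0.11 in Ndufs7, 0.063 to 0.36 in Ndufs6, -0.42 to -0.18 in Ndufb2, -0.20 to -0.026 in Ndufb11, 0.052 to 0.31 in Ndufaf5 and 0.078 to 0.18 in Ndufaf6.

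Calls among the members depended on control 7. Without that library edgeR called 4 of 40 members, all higher and all subunits, where 4.25% of tested genes were called. These were Ndufs3 (log2 fold change 0.87 ± 0.22, adjusted p = 0.0333), Ndufv1 (0.61 ± 0.16, adjusted p = 0.0357), Ndufa9 (0.98 ± 0.24, adjusted p = 0.0261) and Ndufa10 (0.52 ± 0.13, adjusted p = 0.0297). With 1 surrogate variable added to the model the same 4 were called, where 5.59% of tested genes were. That variable was estimated from these counts and was highest in knockout 4 and control 7. Without both of these libraries 2 members were called, Ndufa9 and Ndufa10, where 3.67% of tested genes were. In each fit without 1 other library, and under RLE scaling, library size alone or no low-count filter, 0 of 40 were called.

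Ndufa10 shows the dependence on 1 library most plainly. This subunit of the proximal membrane arm (chromosome 1, 92439010 to 92473860) had 139.6, 176 and 255 CPM in knockouts, against 116, 126 and 190.2 CPM in controls. All 7 knockouts lay above the other 7 controls, whose highest was 134 CPM, and control 7 was the single control inside the knockout range. The share of all tested genes whose groups do not overlap without control 7 was not determined. Its log2 fold change was 0.42 ± 0.14 with all libraries (edgeR adjusted p = 0.16). Ndufa10 was named after its values were seen. Muscle markers summed to 55163 CPM in knockout 4 and 46806 CPM in control 7, the highest of each group. The part of these library differences in the results was not tested.

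In Ndufa7, Ndufa1 and Ndufa8, 1 library fell far below the rest of its group. Ndufa7, an N module subunit (chromosome 17, 33824572 to 33838317) and the most abundant member, had 241 CPM in control 8 and 1034 to 2124 CPM in the other controls. Ndufa1, an X-linked subunit of the membrane arm (chromosome X, 37187588 to 37191163), had 59.2 CPM in knockout 7 and 493 to 904 CPM in the other knockouts. Ndufa8, a proximal-arm subunit facing the intermembrane space (chromosome 2, 36036326 to 36049406), had 16.6 CPM in control 7 and 55.0 to 88.0 CPM in the other controls. The raw counts behind these low values, in the same order of genes, were 2694, 782 and 313. The deposited normalised table is the same counts over 1 factor per library and gives no separate check.

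Leaving the low library out changed the size of these differences but made no call. For Ndufa7 the log2 fold change was 0.20 ± 0.17 without control 8 and 0.36 ± 0.30 with it (edgeR adjusted p = 0.655 and 0.603). For Ndufa1 it was 0.29 ± 0.26 without knockout 7 and 0.084 ± 0.39 with it (edgeR adjusted p = 0.688 and 0.931). For Ndufa8 it was 0.42 ± 0.19 without control 7 and 0.56 ± 0.27 with it (edgeR adjusted p = 0.185 and 0.373). For Ndufa8 it was 0.34 without knockout 4, the highest knockout at 173 CPM. Over the whole table, 27 values of genes with a median of at least 200 counts lay 8-fold or more below the median of the rest of their group, 1 of them in these members (Ndufa1).

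**Figure D5:**
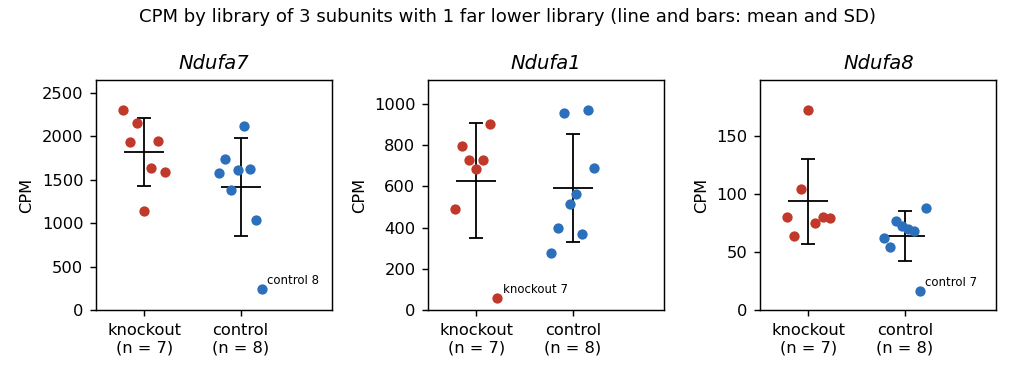
CPM of Ndufa7, Ndufa1 and Ndufa8 in each library, with the mean and SD of 7 knockouts and 8 controls. The single low library is marked in each panel: control 8 for Ndufa7, knockout 7 for Ndufa1 and control 7 for Ndufa8.

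No further complex I gene was called, while 4 subunits of complexes II and III rose. Of 8 further complex I genes measured, 6 were positive, 0 were called and the median was 0.29. Tmem70, an assembly factor of complexes I and V, had the smallest p: it averaged 71.7 ± 15.4 CPM in knockouts and 48.6 ± 12.3 CPM in controls, a log2 difference of 0.56 ± 0.17 (edgeR adjusted p = 0.101, or 0.0268 without control 7). Among 36 subunits of complexes II to V, 32 were positive, 4 rose and 0 fell, with a median of 0.41, where 50.6% of all tested genes were positive and 2.17% were called. Uqcrfs1, the Rieske iron-sulfur protein of complex III, averaged 276 ± 42.2 CPM in knockouts and 173 ± 27.9 CPM in controls (log2 fold change 0.67, edgeR adjusted p = 0.00784). Uqcrc2, a core protein of the same complex, averaged 234 ± 39.9 CPM in knockouts and 157 ± 27.1 CPM in controls (edgeR adjusted p = 0.0318). Sdhb, the iron-sulfur subunit of complex II, averaged 109 ± 21.6 CPM in knockouts and 61.7 ± 18.6 CPM in controls (edgeR adjusted p = 0.0199), and Sdhd, a membrane anchor of that complex, averaged 404 ± 75.3 CPM in knockouts and 279 ± 39.7 CPM in controls (edgeR adjusted p = 0.0483). Uqcrfs1 kept its call in all 15 fits without 1 library (highest adjusted p by edgeR 0.0274). Sdhb lost it without knockout 2 and without knockout 5 (adjusted p = 0.0537 and 0.0504 by edgeR), and under library size alone (adjusted p = 0.0535). Uqcrc2 lost it in 8 of the 15 fits, without knockouts 2, 3 and 7 or controls 1, 2, 4, 5 and 6, with a highest adjusted p of 0.102 by edgeR. Sdhd lost it in 13, all but those without knockout 6 and without control 7 (highest adjusted p by edgeR 0.15), and also under RLE scaling, without the low-count filter and by limma voom (adjusted p = 0.0551, 0.0593 and 0.0553). Whether complex I differs from the later complexes was not tested. Of 10 tested regulators of respiratory genes 1 rose, the nuclear receptor Esrrb, at 5.37 ± 1.28 CPM in knockouts and 2.66 ± 0.894 CPM in controls (edgeR adjusted p = 0.0137). Ppargc1a, the PGC-1alpha coactivator gene, averaged 51.0 ± 19.8 CPM in knockouts and 30.3 ± 9.35 CPM in controls and did not pass (edgeR adjusted p = 0.0915). Nor did Tfam, at 93.3 ± 4.18 CPM in knockouts and 75.3 ± 5.57 CPM in controls (edgeR adjusted p = 0.0961). The lowest knockout of Tfam, 86.4 CPM, lay above its highest control, 84.3 CPM, where 1.19% of tested genes had groups that did not overlap.

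Marker sums of other cell types overlapped between the groups. The 5 fibroblast markers summed to 1052 to 2490.4 CPM in knockouts and 1845 to 3354 CPM in controls, with medians of 1506 and 3036 CPM and 0 of 5 called. Medians for knockouts and controls were 50.2 and 54.4 CPM for 5 adipocyte markers, 18.3 and 20.7 CPM for 3 of 5 macrophage markers, and 209 and 206 CPM for 5 endothelial markers. They were 55.8 and 51.6 CPM for 4 Schwann cell markers and 21.6 and 22.1 CPM for 2 of 4 erythroid markers. Of these lists no tested gene was called. The part of cell composition in the complex I values was not tested.

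The promoters of the members were read from the RefSeq table (GRCm38.p6), which held 35 of the 40, as windows from 250 bases before to 50 after the start. The letters AAGATGGC, the core of the YY1 motif, occurred on either strand in 7 of 30 subunit promoters and in 0 of 5 assembly factor promoters, against 5.3% of the promoters of tested genes. GCGCATGC, the core of the NRF1 motif, occurred in 5 of 35 member promoters, against 6.3% of tested genes. CCGGAAG, bound by GABP, occurred in 5 of 35, against 20.1%, and AAGGTCA, bound by estrogen-related receptors, in 1 of 35, against 3.7%. These matches are descriptions of the windows. The 7 members with AAGATGGC were Ndufa9, Ndufa3, Ndufc1, Ndufs4, Ndufs6, Ndufb8 and Ndufs7, whose log2 differences ran from -0.21 (Ndufs7) to 0.76 (Ndufa9). Ndufa8 and Ndufa5, also among the largest differences, did not hold it. As examples, the promoters of Ndufa9 and Ndufa3 are shown 5′ to 3′ with the AAGATGGC match in capitals.
Ndufa9 (chr6:126849095-126849394, reverse strand): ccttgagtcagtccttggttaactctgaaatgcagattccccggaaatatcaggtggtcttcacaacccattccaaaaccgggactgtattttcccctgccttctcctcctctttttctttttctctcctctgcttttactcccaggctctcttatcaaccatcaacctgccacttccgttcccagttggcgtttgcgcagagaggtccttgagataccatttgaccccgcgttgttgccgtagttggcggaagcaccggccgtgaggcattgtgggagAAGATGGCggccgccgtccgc
Ndufa3 (chr7:3617123-3617422, forward strand): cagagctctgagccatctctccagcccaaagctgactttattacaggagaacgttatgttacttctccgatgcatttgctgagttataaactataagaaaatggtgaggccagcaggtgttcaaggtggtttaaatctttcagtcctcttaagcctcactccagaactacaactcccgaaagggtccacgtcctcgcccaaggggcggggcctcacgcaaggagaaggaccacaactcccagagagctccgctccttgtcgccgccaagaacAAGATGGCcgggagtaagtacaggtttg
In both, as in the other members holding AAGATGGC, the match lies within the last 50 bases, downstream of the start. Whether it overlaps the coding sequence was not determined.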

How the data were processed

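Per the labels' protocols, RNA was extracted with Trizol and SOLiD SAGE libraries were made from gastrocnemius of 7 knockout and 8 control mice. The authors deposited raw tag counts per gene symbol for 13602 genes (360 blank lines were dropped) and a table of normalised signal values, equal to the counts divided by 1 size factor per library. Per the submitters' processing notes DESeq2 was used with mm10 and GRCm38.p1. The aligner and counter are not given in the sources used here. No gene in the count table had fewer than 22 tags in all.

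The counts were fitted in R 4.3.3 by edgeR 4.0.16 (filterByExpr, minimum count 10, TMM, robust quasi-likelihood F test, group as the only term, all 15 libraries), which left 11062 genes, with Benjamini-Hochberg adjustment over all of them. CPM are counts scaled by edgeR to TMM-adjusted library size, log2 CPM used a prior count of 2, and SE is the log2 fold change over the root of F. DESeq2 1.42.0, limma 3.58.1 (voom), sva 3.50.0, other scalings, no filter, a replicate block and leaving out libraries were alternatives. The procedure was tested on simulated data, where it called a share of 0.592 of 98 genes with an absolute log2 change of 1. The share called was 0.0204 of 98 genes with a change of 0.5, and 9.3e-05 of 10779 unchanged genes. A change of 0.5 was thus rarely called in the simulation. Its changed genes were drawn from all tested genes, whose median level was 9.80 CPM, against 206 CPM over the members. Counts were simulated independently, without differences shared by the genes of a library. The shares called are therefore not those of the members. The lack of calls among the members still does not show that they were unchanged. The number of tags limits the precision of the least abundant members.

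The members, lists and alternatives were chosen with earlier results of these data known, so no p is given for lists. The rule finds 41 genes, of which 1 is not reported here and enters no count, sum or median of members. The text names the core subunits, the assembly factors, the 4 accessory subunits at each end, Ndufa4, Ndufa4l2 and Ndufab1 by rule, and called or smallest-p members of the comparison lists. The remaining members, and Ppargc1a and Tfam among the regulators, were named after their values were seen. Nduf symbols outside the table were not analysed here. Labels do not say whether mice shared litters or days. Sequences come from GENCODE M21 and RefSeq (GRCm38.p6), and 40 of 40 symbols matched directly.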

Additional observations from a re-analysis of the deposited data

Results flagged for a closer look

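Dixon's criterion was applied on the log2 CPM scale to 82 gene and group combinations (the 40 members and Cpt1b, in knockouts and in controls). In 7 of them 1 library stood apart from the others of its group. The nominal rate of about 1 in 20 assumes independent values, whereas these genes share the same libraries. The share over all tested genes was not determined, so no excess in the members is claimed. Low values were Ndufa1 in knockout 7 (59.2 CPM), Ndufa4 in knockout 4 (18.8 CPM, against 62.0 to 104 CPM in the other knockouts), Ndufa7 in control 8 (241 CPM) and Ndufa8 in control 7 (16.6 CPM). High values were Ndufa5 in knockout 4 (199 CPM), Ndufv3 in knockout 4 (106 CPM, against 40.1 to 59.9 CPM in the other knockouts) and Ndufa10 in control 7 (190.2 CPM, against 116 to 134 CPM in the other controls). Knockout 4 or control 7 accounted for 5 of the 7. Why single libraries differ this far in these genes was not tested.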

How the results depend on the processing

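The count of members called higher was 4 without control 7, 2 without control 7 and knockout 4 together, 4 with the first surrogate variable, and 0 in every other alternative run, so that over the fits without 1 library it ran from 0 to 4. The count called lower was 0 throughout. Over all alternatives the number of genes called in the whole table ran from 117 (replicate block) to 618 (first surrogate variable), against 240 in the reported fit. The median log2 fold change stayed between 0.21 and 0.30 for subunits and between 0.10 and 0.28 for assembly factors over the fits without 1 library. The Cpt1b level passed with DESeq2 (-1.03, adjusted p = 0.0314), with the surrogate variable (-0.99), without the pair of libraries (-0.94) and without control 7, and ran from -1.20 to -0.86 over the fits without 1 library. Members near 0 changed sign. With the surrogate variable the log2 fold change was 0.15 for Ndufa11, 0.040 for Ndufa4, 0.040 for Ndufb11 and 0.015 for Ndufs7. With voom it was 0.024 for Ndufa4l2 and -0.12 for Ndufa1. Without the pair it was 0.20 for Ndufa4l2 and -0.043 for Ndufb7. Over the fits without 1 library it ran from -0.026 to 0.29 for Ndufa1, -0.25 to 0.11 for Ndufa11, -0.21 to 0.14 for Ndufa4, -0.16 to 0.14 for Ndufa4l2, -0.066 to 0.13 for Ndufb7, -0.024 to 0.17 for Ndufb5, -0.0020 to 0.19 for Ndufb8 and -0.011 to 0.26 for Ndufaf3. The cause was not tested. Same-numbered libraries did not deviate together (correlations from -0.45 to 0.31, and 1 of 7 knockouts correlated best with its own number). These correlations cannot tell whether mice shared litters or days, which the labels do not give. With a replicate block over the 14 libraries that share numbers, 0 members were called, and the log2 fold change turned to 0.14 for Ndufa11 and 0.039 for Ndufa4l2. With this block no call among complexes II to V was kept. The least abundant members rest on few tags (5 to 28 for Ndufs6).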
